A study of Mus musculus with 14 samples.

Results

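The mRNAs of 10 alpha and beta tubulin isotypes were followed in Ocy454 cells. The members were chosen by name, with earlier results of these data known. They are the alpha isotypes *Tuba1a*, *Tuba1b*, *Tuba1c* and *Tuba4a* and the beta isotypes *Tubb2a*, *Tubb2b*, *Tubb3*, *Tubb4b*, *Tubb5* and *Tubb6*, 10 of the 39179 genes of the differentiation table and of the 35886 genes summed from the sorted libraries. All 10 passed the filter on low values in the differentiation experiment, and 9 did in the sort, where *Tubb2b* was too low. Ocy454 is a mouse cell line used as a model of osteocytes. Every library here carries its immortalizing gene, a large T antigen that works only at low temperature. Cells grew to confluence at 33 °C and were then moved to 37 °C, which inactivates the antigen. Unsorted cells were collected 1 day, 7 days, 10 days and 14 days after that shift, with 2 biologic replicates per day. In a separate experiment live cells were sorted after 17 days at 37 °C into the 10% with the most surface CD61 (CD61high) and the 10% with the least (CD61low), from 3 independent groups of cells. CD61 is integrin beta-3, a cell surface adhesion protein. All libraries come from a single immortalized line.

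Alpha and beta tubulin pair into heterodimers, and the heterodimers polymerize into microtubules, the hollow filaments that carry cargo, build the mitotic spindle and run through the long dendrites of osteocytes. The isotypes of each family are nearly alike along the folded core and differ mostly in the acidic C-terminal tail on the microtubule surface, where motors, severing enzymes and modifying enzymes act. Most alpha isotypes end in a genetically encoded tyrosine, which the vasohibins remove with their partner Svbp and which tubulin tyrosine ligase (Ttl) puts back. Cells also tune tubulin mRNA to the pool of free dimers: Ttc5 binds the first residues of nascent tubulin on the ribosome and, with Scaper and the CCR4-NOT subunit Cnot11, has the message degraded. *Tubb3* is best known from neurons, *Tubb5* and *Tubb4b* are broadly made, and *Tubb6* is common in non-neuronal cells.

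The coding sequences show where the isotypes part. Each member has 4 coding exons in the transcript used here, and the coding length without the stop codon runs from 444 codons in *Tubb5* to 451 in *Tuba1a* and *Tuba1b*. The last 45 coding bases of 7 members follow, from the GRCm39 genome with the GENCODE M39 annotation, because they encode the C-terminal tail, in which isotypes of a family mostly differ. Those of *Tubb2a* and *Tubb2b* encode the same residues. Capitals mark the last codon before the stop.
Tuba1c: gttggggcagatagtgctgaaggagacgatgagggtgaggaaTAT
Tuba4a: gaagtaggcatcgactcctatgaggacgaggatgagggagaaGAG
Tubb2a: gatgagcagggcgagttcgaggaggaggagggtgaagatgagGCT
Tubb2b: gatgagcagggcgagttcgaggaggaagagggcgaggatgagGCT
Tubb3: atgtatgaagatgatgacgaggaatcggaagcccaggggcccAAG
Tubb4b: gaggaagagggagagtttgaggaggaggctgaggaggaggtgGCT
Tubb5: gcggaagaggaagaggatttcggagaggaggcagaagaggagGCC
*Tuba1c* ends in a tyrosine codon and *Tuba4a* does not. The first 4 codons, which encode the residues that the autoregulation machinery reads, were shared within each family in the last of them. They are shown for the most different spellings, with the fourth codon in capitals.
Tuba1c: atgcgtgagTGC
Tuba4a: atgcgcgagTGC
Tubb2a: atgcgcgagATC
Tubb3: atgagggagATC
Tubb5: atgagggaaATC
The fourth codon was TGC in all 4 alpha isotypes and ATC in the 5 beta isotypes examined.

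The pairs that are hardest to tell apart lie side by side in the genome. On GRCm39, *Tuba1b* (98827738 to 98832493, minus strand), *Tuba1a* (98847714 to 98851589, minus strand) and *Tuba1c* (98927748 to 98936266, plus strand) neighbour each other on chromosome 15. *Tubb2a* (34257549 to 34261998) and *Tubb2b* (34307245 to 34315143) lie on the minus strand of chromosome 13. The others are single: *Tuba4a* on chromosome 1 (75189219 to 75196566, minus strand), *Tubb4b* on chromosome 2 (25112170 to 25114714, minus strand), *Tubb3* on chromosome 8 (124138163 to 124150092, plus strand), *Tubb5* on chromosome 17 (36144809 to 36149198, minus strand) and *Tubb6* on chromosome 18 (67523585 to 67536773, plus strand). The coding sequences of *Tuba1a* and *Tuba1b* were 98.3% identical, those of *Tuba1b* and *Tuba1c* 98.0% and those of *Tubb2a* and *Tubb2b* 96.5%. Any alpha against any beta isotype gave 60.4% to 61.7%. *Tuba4a*, *Tubb3*, *Tubb5* and *Tubb6* had no stretch of 100 coding bases that occurs anywhere else in the genome. By contrast 86.0% of such stretches of *Tuba1b* occurred elsewhere in the genome or in the joined coding exons of another member. The same held for 80.6% of *Tuba1c*, 65.3% of *Tuba1a*, 43.9% of *Tubb2a* and of *Tubb2b* and 33.3% of *Tubb4b*. Reads from these 6 genes can therefore be lost or split in counting.

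**Figure D1:**
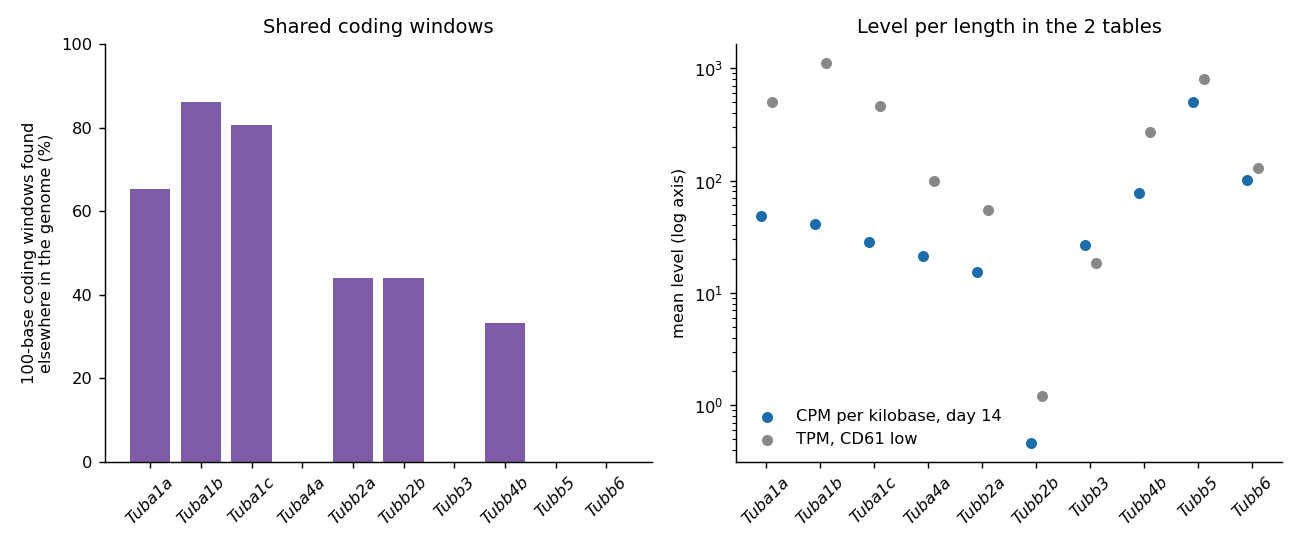
Left, percent of all 100-base windows along each coding sequence that occur elsewhere in GRCm39 or in the joined coding exons of another member. Right, mean level per length on a log axis, as CPM per kilobase on day 14 (2 libraries) and as TPM in CD61low cells (3 libraries). *Tuba1b* has the most shared windows, at 86.0%, and stands at 40.9 CPM per kilobase in one table and 1112 TPM in the other.

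Promoters are shown for *Tubb2a* and *Tubb2b*, whose mean CPM fell to the lowest share of its day 1 level, and for *Tubb3*, which rose the most. Each line gives the 100 bases before the start of the coding transcript with the most counts, 5′ to 3′ on the gene's strand, at chr13:34261999-34262098, chr13:34314464-34314563 and chr8:124138063-124138162 of GRCm39. Capitals mark the letters CCAAT on either strand, the letters TATAAA on either strand and likewise the letters GGGCGG, with the complement shown where the match is on the other strand.
Tubb2a: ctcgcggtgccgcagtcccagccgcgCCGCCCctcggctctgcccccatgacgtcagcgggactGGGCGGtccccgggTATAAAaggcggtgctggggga
Tubb2b: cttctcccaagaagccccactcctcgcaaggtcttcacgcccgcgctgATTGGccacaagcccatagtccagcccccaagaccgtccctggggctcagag
Tubb3: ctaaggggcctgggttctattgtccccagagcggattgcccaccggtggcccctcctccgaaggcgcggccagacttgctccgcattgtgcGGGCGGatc
*Tubb2a* had TATAAA at base -22 and GGGCGG at bases -74 and -36 from its start. *Tubb2b* had CCAAT at base -52 and a GGGCGG further off at base -197, and *Tubb3* had GGGCGG at base -9. In windows of 250 bases before the start of 21770 genes, the letters CCAAT occurred in 36.5%, the letters TATAAA in 11.9% and the letters GGGCGG in 36.3%. *Tubb4b* had 5 CCAAT in that window. The matches are a description of these letters and not of binding.

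The libraries held 27518605 to 34311238 reads on genes in the differentiation experiment and estimated counts of 18815602 to 19220064 in the sort. Counting noise is therefore small for every member but *Tubb2b*. The labels were checked with genes of known behaviour. *Itgb3*, which encodes CD61, was 5.65 ± 0.408 TMM-normalized CPM in CD61low and 111 ± 16.4 in CD61high cells (SD, n = 3). Of 9 osteoblast and osteocyte markers tested, 7 were higher on day 14 than on day 1, *Dmp1*, *Phex* and *Sost* by a Log2FC of 4.83, 5.602 and 4.22, and 2 lower (*Col1a1* -0.47 and *Pdpn* -0.53), beside 32.6% and 36% of all genes. The sum of the list, nearly all of it *Col1a1*, was 35020 and 35067 CPM on day 1 and 23829 and 29045 on day 14. In the sort 8 of the 9 were higher in CD61high cells and 1 lower, beside 19.4% and 16% of all genes, with a median Log2FC of 1.65. The 8 include *Itgb3* itself (Log2FC 4.30), the gene of the protein used for sorting, so its direction was set by the design. The list then summed to 16102 to 19648 TMM-normalized CPM in CD61low and 44879 to 47505 in CD61high libraries. The summed neuron markers reached at most 0.709 CPM on any day and *Rbfox3*, *Snap25*, *Nefl* and *Nefm* were at 0 throughout the differentiation libraries. The 6 macrophage markers summed to 1.74 to 5.09 CPM in the differentiation libraries, 12.8 to 15.8 in CD61low and 8.24 to 8.86 in CD61high libraries, with *Adgre1* at 0 in all 14. *Cd68*, the one of them tested, had a Log2FC of 1.08 on day 10 against day 1, 0.71 on day 14 against day 1 and -0.81 in the sort, all past the test. Chondrocyte markers summed to 66.6 to 81.2 CPM up to day 10, 102 to 121 on day 14, 37.4 to 47.1 in CD61low and 96.4 to 113 in CD61high libraries, and muscle markers to 2.10 to 3.13, 23.02 to 25.04, 17.1 to 18.4 and 29.6 to 42.1. The part of these 3 marker lists in the results was not tested. These are bulk libraries, so fewer cells with a transcript and less of it per cell cannot be told apart.

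During differentiation most tubulin mRNAs fell and *Tubb3* rose. A gene passed the test at a Benjamini-Hochberg adjusted p below 0.01 in limma on log2(CPM + 1), fitted over 12725 genes and all 8 libraries. Against day 1, 8 of 10 members passed on day 7 (1 higher, 7 lower), where 56.5% of all genes did (24.5% higher, 32% lower). On day 10 all 10 passed (1 higher, 9 lower), beside 63.5% of all genes (33.1% higher, 30.3% lower). On day 14 all 10 passed again (2 higher, 8 lower), beside 68.6% of all genes (32.6% higher, 36% lower). Passing the test was therefore common among all genes, and more members were lower than higher on each day. With a Log2FC above 1 or below -1 required as well, 4 members passed on day 7 (1 above, *Tubb3*, and 3 below), beside 9.11% of all genes (4.49% above, 4.62% below). On day 10, 3 did, all below, beside 10.5% (6.06% above, 4.42% below), and on day 14, 2 did, *Tuba1a* and *Tubb2a*, beside 13.4% (7.51% above, 5.9% below). The median Log2FC of the members was -0.44, -0.58 and -0.47, beside -0.05, 0.02 and -0.03 over all genes. The comparisons with day 1 share its 2 libraries.

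**Figure D2:**
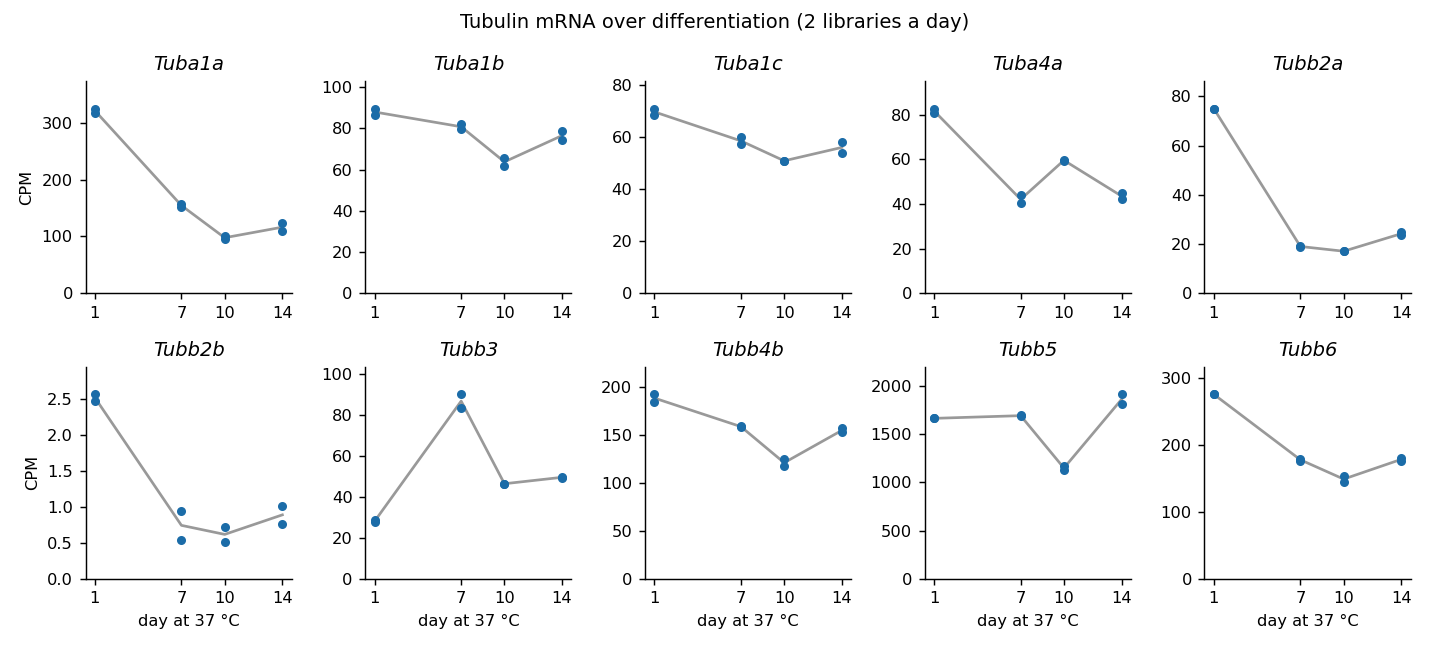
CPM of each member (vertical axis, from 0, scaled to each gene) against the day at 37 °C. Points are single libraries, 2 per day, and the line joins the means. *Tuba1a* and *Tubb2a* drop between day 1 and day 7, *Tubb3* peaks on day 7, and *Tubb5* dips on day 10.

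Among the alpha isotypes *Tuba1a*, the main alpha tubulin of growing neurons, changed the most. It measured 325 and 318 CPM on day 1, 152 and 157 on day 7, 95.1 and 100.3 on day 10 and 109 and 123 on day 14. Every later library lay below both day 1 libraries. The Log2FC was -1.05 on day 7, -1.71 on day 10 and -1.46 on day 14 (standard error 0.05 each, limma adjusted p = 9.35e-17, 1.89e-21 and 4.41e-20).

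*Tuba4a*, the isotype without a coded final tyrosine, followed another course. It fell from 82.6 and 80.6 CPM on day 1 to 40.3 and 43.8 on day 7, stood at 59.7 and 59.3 on day 10 and returned to 42.0 and 44.9 on day 14. The groups did not overlap between day 7 and day 10 or between day 10 and day 14. Its Log2FC against day 1 was -0.94, -0.45 and -0.89, all past the test. It rose by a Log2FC of 0.49 from day 7 to day 10 (limma adjusted p = 1.26e-08) and fell by 0.44 on the log2 scale from day 10 to day 14 (5.90e-08).

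*Tuba1b* and *Tuba1c*, the widely expressed alpha isotypes, fell less than *Tuba1a* on each day. *Tuba1b* measured 89.5 and 86.3 CPM on day 1 and 78.6 and 74.4 on day 14, with its lowest values, 61.7 and 65.8, on day 10. Its Log2FC was -0.12 on day 7, which did not pass (limma adjusted p = 0.0267), then -0.46 and -0.20, which did. *Tuba1c* went from 68.4 and 70.8 CPM on day 1 to 53.9 and 58.0 on day 14, with Log2FC of -0.25, -0.45 and -0.31 at days 7, 10 and 14, all past the test. The *Tuba1b* call on day 14 was lost without the first day 1 library (-0.17, adjusted p = 0.0145) or the second day 14 library (-0.16, 0.0105). Both are also the isotypes with the most shared sequence.

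Among the beta isotypes the pair *Tubb2a* and *Tubb2b* fell the furthest. *Tubb2a* measured 75.0 and 75.0 CPM on day 1, 19.2 and 18.7 on day 7, 17.0 and 17.0 on day 10 and 23.6 and 24.8 on day 14. Its mean on day 10 was 0.227 times that on day 1, and the Log2FC against day 1 was -1.93, -2.07 and -1.59 (standard error 0.06, the largest limma adjusted p 5.17e-18). On the opposite strand *Bphl*, a hydrolase gene, overlaps 95.7% of the coding bases of *Tubb2a* and stood at 12.01 and 12.7 CPM on day 1, 10.9 and 11.1 on day 7, 7.98 and 6.64 on day 10 and 14.98 and 15.01 on day 14. Both genes were at their lowest on day 10. Whether the counting used strand is not given in the sources used here, and reads of the pair could not be told apart if it did not.

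*Tubb2b* was the lowest member throughout. It measured 2.48 and 2.57 CPM on day 1, 0.540 and 0.950 on day 7, 0.722 and 0.516 on day 10 and 1.02 and 0.763 on day 14. All 6 later libraries were below day 1, and the day 7 mean was 0.295 times that of day 1. The pseudocount of 1 shrinks its Log2FC, which was -1.02, -1.13 and -0.90 (standard error 0.15, limma adjusted p = 1.99e-06, 3.65e-07 and 9.00e-06). It met the filter of a CPM above 1 through day 1 and the day 14 library at 1.02. Its entry into the test therefore leaned on the day where it was highest. With a mean CPM of at least 5 required, which leaves it out, 2 members and not 3 were below -1 on days 7 and 10.

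*Tubb3*, the beta isotype used as a neuronal marker, was the one member with a large increase. It went from 28.6 and 27.6 CPM on day 1 to 90.0 and 83.4 on day 7, then 46.5 and 46.3 on day 10 and 49.7 and 49.3 on day 14. Every later library exceeded both day 1 libraries, and day 7 exceeded all others. The mean rose 3.09-fold by day 7, with a Log2FC of 1.59 (standard error 0.05, limma adjusted p = 1.51e-19). The Log2FC was 0.70 on day 10 and 0.80 on day 14. None of its coding windows of 100 bases occurs elsewhere, and the neuron markers with values above 0 summed to 0.472 to 0.565 CPM on day 1 and 0.390 to 0.493 on day 7.

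*Tubb5*, the most abundant member per length on every day, moved differently. It measured 1667 and 1665 CPM on day 1, 1696 and 1692 on day 7, 1168 and 1131 on day 10 and 1812 and 1915 on day 14. Day 10 was the only day below day 1. The Log2FC was 0.02 on day 7, which did not pass (limma adjusted p = 0.606, 95% interval -0.06 to 0.11), -0.53 on day 10 and 0.16 on day 14, which passed at an adjusted p of 0.000722 but not without either day 1 library (0.16 each, adjusted p = 0.0114 and 0.0126). *Flot1*, which encodes a membrane scaffold protein, overlaps 87.5% of the coding bases of *Tubb5* on the opposite strand, at 47.7 and 50.2 CPM on day 1, 35.4 and 37.7 on day 7, 38.3 and 39.6 on day 10 and 49.4 and 51.5 on day 14.

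*Tubb4b* and *Tubb6* fell more modestly. *Tubb4b* went from 192 and 185 CPM on day 1 to 158 and 160 on day 7, 125 and 117 on day 10 and 153 and 157 on day 14, a Log2FC of -0.25, -0.63 and -0.28. *Tubb6* went from 276 and 276 to 179 and 177, 153 and 145, and 176 and 181, a Log2FC of -0.63, -0.88 and -0.62. Both were lowest on day 10, and no later library of either overlapped day 1. All 6 of these comparisons passed the test. On the opposite strand *Gm58538* overlaps 65.1% of the coding bases of *Tubb6*, and *Gm41396* lies among the genes that overlap 34.9% of those of *Tuba1a* and of *Tuba1b*. The levels of these overlapping genes were not examined.

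Between successive late days *Tuba1a*, *Tuba1b*, *Tubb4b*, *Tubb5* and *Tubb6* first fell and then rose. The share of all genes that did so is not given here. Both steps share the day 10 libraries, so a deviation of these libraries moves the steps in opposite directions. The *Tuba1a* rise (Log2FC 0.25) did not pass without a filter on low values (limma adjusted p = 0.0117) or without a trend in limma (0.0155). From day 7 to day 10, 8 of 10 passed (7 lower, with *Tuba4a* higher), beside 48.7% of all genes (29.8% higher, 18.9% lower). Of all calls in this step 61.3% were higher, against 48.2% with TMM scaling of the recovered reads and 49.4% with quantile normalization. *Tubb3* fell by 0.89 on the log2 scale, *Tuba1a* by 0.66 and *Tubb5* by 0.56. *Tubb2a* at -0.15 (limma adjusted p = 0.0470) and *Tubb2b* at -0.10 (0.586) did not pass, and the *Tubb2b* libraries of these days overlapped. *Tubb2a* passed with TMM scaling of the recovered reads (-0.21, 0.00469), quantile normalization (-0.22, 0.00392) and edgeR on those reads (-0.23, 0.00638). From day 10 to day 14, 7 of 10 passed (6 higher, with *Tuba4a* lower), beside 52.8% of all genes (22.9% higher, 30% lower). Of all calls in that second step 43.3% were higher, against 53.0% with TMM scaling of the recovered reads and 46.7% with quantile normalization. *Tubb5* had the largest Log2FC of the members at 0.70 (limma adjusted p = 6.86e-14). *Tuba1c* at 0.14 (0.0219), *Tubb2b* at 0.22 (0.207) and *Tubb3* at 0.09 (0.128) did not pass, though *Tuba1c* did without the first day 14 library (0.19, 0.00602) and, with all libraries, under TMM scaling (0.19, 0.00143), quantile normalization (0.18, 0.00399) and edgeR (0.20, 0.00154). The *Tuba1c* decrease from day 7 to day 10 (-0.20, 0.00149) was lost without the second day 7 library (-0.17, 0.0316) or either day 10 library (-0.20 each, 0.0101 and 0.0104). In limma no member had a Log2FC above 1 or below -1 in either step, beside 2.22% of all genes (1.43% above, 0.786% below) and 2.96% (2.09% above, 0.872% below).

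**Figure D3:**
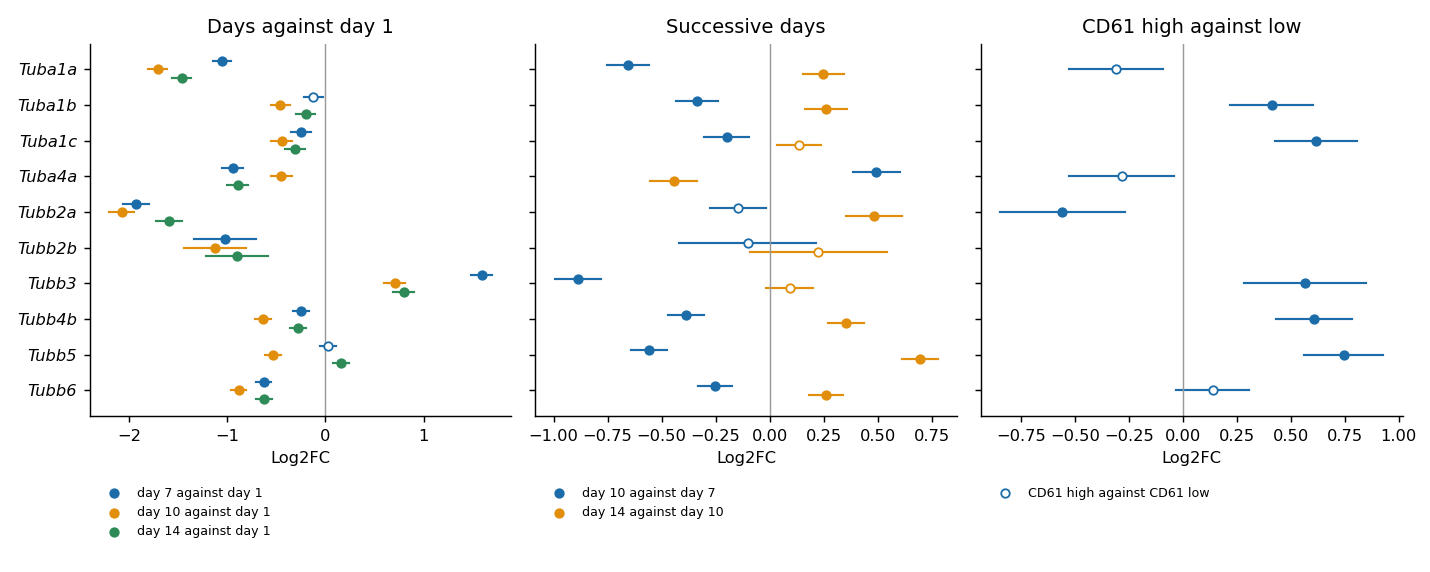
Log2FC with its 95% interval (horizontal axis) for each member, in days against day 1, in successive days and in CD61high against CD61low cells. Filled points passed the test at an adjusted p below 0.01 and open points did not. *Tubb3* is far to the right of 0 on day 7, with 1.59, and *Tubb2a* far to the left on day 10, with -2.07.

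The summed cell cycle genes were at their lowest on day 10 as well. Of 17 listed genes of mitosis and DNA replication, 12 were lower and 1 (*Pcna*) higher on day 10 than on day 7, beside 18.9% and 29.8% of all genes. On day 14 against day 10, 12 were higher and 3 (*Pcna*, *Mcm2* and *Mcm5*) lower, beside 22.9% and 30% of all genes. Their summed level ranged from 2898 to 2933 CPM on day 10, below 3103 to 3281 CPM on the other days. Their part in the tubulin values was not tested. On day 14 against day 1 the list was split, with 5 higher (*Cenpf*, *Ube2c*, *Ccnb2*, *Bub1* and *Pcna*) and 6 lower of 17, beside 32.6% and 36% of all genes. *Plk1*, the polo-like kinase of mitosis, had the lowest Log2FC at -1.02.

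Per kilobase of gene model, the order of levels changed around a fixed top. On day 1 it ran from *Tubb5* at 444 ± 0.481 CPM per kilobase (SD, n = 2) through *Tubb6* at 157 ± 0.0311, *Tuba1a* at 134 ± 2.05 and *Tubb4b* at 94.0 ± 2.75 down to *Tubb3* at 15.1 ± 0.392 and *Tubb2b* at 1.32 ± 0.0341. *Tubb2a* at 47.5 ± 0.00775 and *Tuba1b* at 47.0 ± 1.202 were the only neighbours whose libraries overlapped. *Tubb5* and *Tubb6* kept the first ranks on all 4 days and *Tubb2b* the last. *Tubb2a* went from rank 5 on day 1 to rank 9 at days 7, 10 and 14, while *Tubb3* went from rank 9 to rank 5 on day 7 and stood at rank 7 on day 14.

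The makeup of each family shifted with these changes. *Tuba1a* made up 52.3% ± 0.171 of the alpha sum on day 1, 40.8% ± 0.266 on day 7, 31.4% ± 0.465 on day 10 and 34.9% ± 1.74 on day 14 (SD, n = 2). *Tuba1b* went from 18.3% ± 0.249 to 29.5% ± 2.22 of that sum over the same 14 days. In the beta sum *Tubb5* took 58.5% ± 0.210 on day 1 and 69.1% ± 0.466 on day 14, and *Tubb2a* 6.25% ± 0.0302 and 2.13% ± 0.00436. *Tubb3* took 1.98% ± 0.0424 on day 1 and 6.73% ± 0.328 on day 7. Not taken per length, the same shares were 74.5% and 82.0% for *Tubb5*, 3.35% and 1.06% for *Tubb2a*, and 1.26% and 4.06% for *Tubb3*. The alpha sum was 256.1 ± 3.07 CPM per kilobase on day 1, 158 ± 2.74 on day 7, 130 ± 2.97 on day 10 and 139 ± 5.08 on day 14. The beta sum was 759 ± 3.55, 691 ± 3.47, 488 ± 13.0 and 718 ± 23.2 on these days. Shares rest on how reads of near-identical genes were counted, which differed between the experiments.

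**Figure D4:**
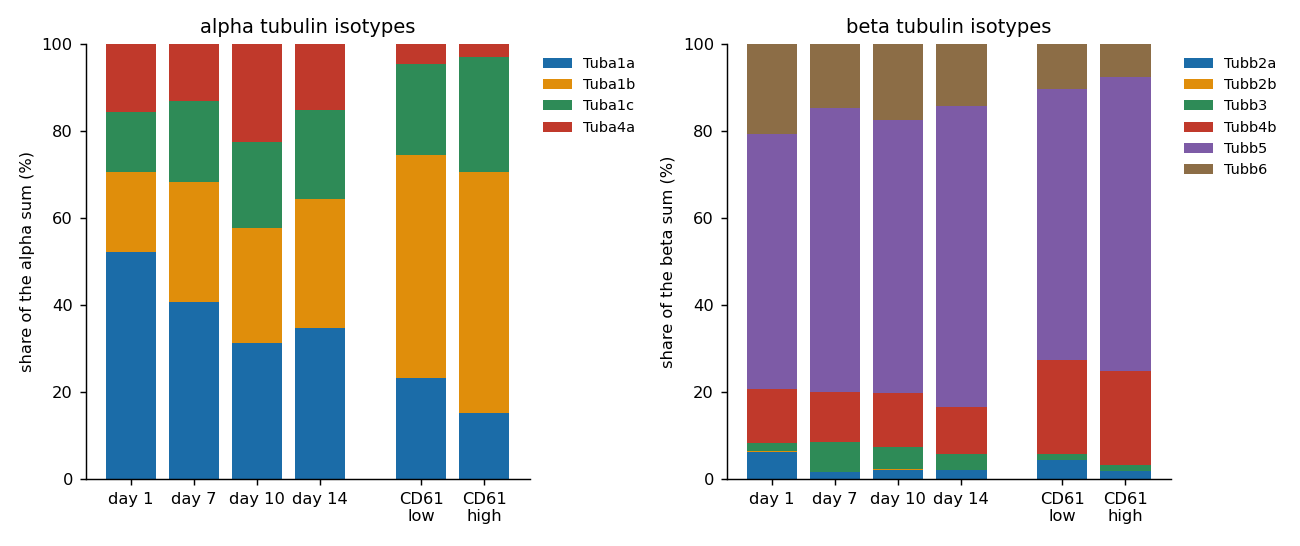
Mean percent of the alpha sum (left) and of the beta sum (right) taken by each isotype, from CPM per kilobase on each day (2 libraries) and from TPM in each sorted group (3 libraries). *Tuba1a* goes from 52.3% on day 1 to 34.9% on day 14, and *Tuba1b* takes 51.2% and 55.4% of the alpha sum in the sorted cells.

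In the sort 5 tubulins were higher and 1 lower in CD61high than in CD61low cells. The test was edgeR's quasi-likelihood test with TMM scaling over 12077 genes. Of the 9 members tested 6 passed, beside 35.4% of all genes (19.4% higher, 16% lower), and none of the 9 had a Log2FC above 1 or below -1, beside 9.22% of all genes (4.84% above, 4.37% below). The median Log2FC of the members was 0.41, beside 0.0035 over all genes. TMM factors were 1.10 to 1.13 in CD61low and 0.895 to 0.909 in CD61high libraries, so the scaling sets the zero. With library size alone the median of all genes moved to -0.30 and the share of calls that were higher went from 54.8% to 18.8%. The members that passed became 3 higher (*Tubb5*, *Tuba1c* and *Tubb4b*) and 3 lower (*Tuba1a*, *Tuba4a* and *Tubb2a*), beside 1120 higher and 4824 lower of all 12077 genes. Changes are given relative to the TMM zero.

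**Figure D5:**
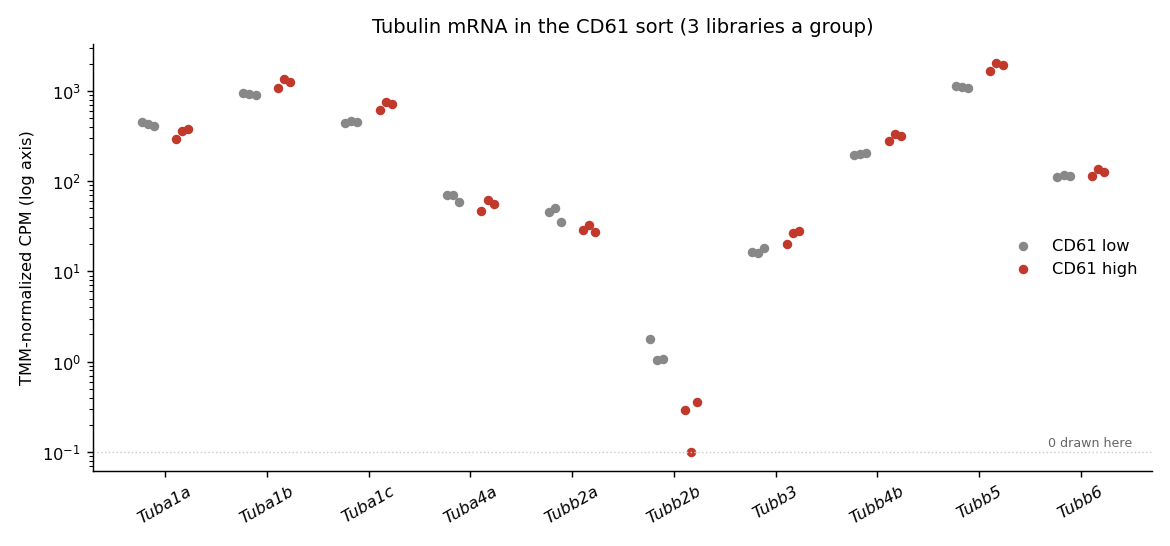
TMM-normalized CPM (log axis) of each member in 3 CD61low and 3 CD61high libraries. Each point is a library, and the dotted line at 0.1 holds the CD61high library with 0 estimated counts of *Tubb2b*. *Tubb5*, *Tuba1c*, *Tubb4b* and *Tubb3* lie higher in every CD61high library than in any CD61low library, and *Tubb2a* lies lower.

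*Tubb5* had the largest Log2FC of the members. It measured 1142, 1103 and 1082 TMM-normalized CPM in CD61low and 1662, 2012 and 1910.5 in CD61high libraries, a Log2FC of 0.75 (standard error 0.08, edgeR adjusted p = 4.11e-05). All 3 CD61high libraries lay above all 3 CD61low libraries. It stayed past the test under library size alone, with a Log2FC of 0.45.

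*Tubb4b*, *Tuba1c*, *Tubb3* and *Tuba1b* were also higher. *Tubb4b* went from 195, 202 and 207 to 276, 332 and 312 (Log2FC 0.61, edgeR adjusted p = 0.000137), and *Tuba1c* from 439.9, 468 and 450.2 to 614, 759 and 711 (0.62, 0.000182). *Tubb3* went from 16.4, 15.9 and 18.01 to 20.3, 26.4 and 27.8 (0.57, 0.00397), and *Tuba1b* from 934, 932 and 891 to 1077, 1346 and 1244 (0.41, 0.00270). The groups did not overlap in these genes, which were singled out by the test. The share of all genes without overlap is not given here. In each of the 4 the first CD61high library was the lowest of its group. Under library size alone *Tubb4b* at 0.31 and *Tuba1c* at 0.32 still passed, while *Tubb3* at 0.27 and *Tuba1b* at 0.11 no longer did. The *Tuba1b* call was also lost without the first CD61low (0.42, adjusted p = 0.0101), second CD61low (0.41, 0.0121) or CD61high replicate 3 (0.39, 0.0178). That of *Tubb3* was lost without the first CD61low (0.54, 0.0150), second CD61low (0.53, 0.0218), second CD61high (0.52, 0.0143) or CD61high replicate 3 (0.47, 0.0231). The neuron markers summed to 1.74 to 2.88 in CD61low and 1.82 to 2.30 in CD61high libraries, with *Snap25*, *Nefl* and *Nefm* at 0.

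*Tubb2a* was the one member called lower. It measured 45.5, 50.1 and 34.9 TMM-normalized CPM in CD61low and 28.7, 32.5 and 27.5 in CD61high libraries, a Log2FC of -0.56 (standard error 0.13, edgeR adjusted p = 0.00504). The groups did not overlap. The call was lost in 4 of the 6 fits that left out a library, with Log2FC of -0.45 without the second CD61low library and -0.51 to -0.54 without the first CD61low, first CD61high or CD61high replicate 3. *Tuba1a*, at 446, 430.1 and 403 in CD61low and 291, 362 and 378 in CD61high libraries, did not overlap between groups but missed the threshold (Log2FC -0.31, 0.0232). DESeq2 on the same counts called it, at an adjusted p of 0.00750. With library size alone *Tubb2a* was at -0.86 and *Tuba1a* at -0.61, both past the test (0.000272 and 0.000328).

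*Tuba4a* and *Tubb6* did not pass. *Tuba4a* measured 70.2, 70.5 and 58.7 in CD61low and 47.2, 61.6 and 55.2 in CD61high cells (Log2FC -0.28, 95% interval -0.53 to -0.04, edgeR adjusted p = 0.0540), and its groups overlapped. Between 40.3% and 47.1% of its counts lay on a transcript other than the coding transcript used here. *Tubb6* measured 112, 116 and 114 in CD61low and 115, 135 and 126 in CD61high cells (Log2FC 0.14, interval -0.03 to 0.31, 0.152), and its groups overlapped too, with the sign turned under library size alone (-0.16) and in limma on log2(TPM + 1) (-0.17). *Tuba4a* was called lower with library size alone (-0.58, 0.00110).

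*Tubb2b* was filtered out of the sort. Its estimated counts were 36.9, 22.4 and 22.2 in CD61low and 5.09, 0 and 5.72 in CD61high libraries. The CD61low libraries lay above all CD61high libraries. The summed counts were 81.4 (95% Poisson interval 64.7 to 101) and 10.8 (5.36 to 19.4), intervals that cover counting error only. In a fit with no filter on low counts, *Tubb2b* was lower with a Log2FC of -2.55 and an edgeR adjusted p of 0.00791. With edgeR's filterByExpr it was -2.56, and the log2 ratio of the mean TMM-normalized CPM was -2.58. *Tubb2b* got through filterByExpr only by its CD61low libraries, where it was higher, so that fit is no test of its direction. A CD61high library held 0, and no fit with another prior count is given here.

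In TPM, which compares genes per length, *Tuba1b* was the top member of the sorted cells, at 1112 ± 8.02 in CD61low and 1189 ± 88.2 in CD61high cells (SD, n = 3). *Tubb5* followed at 794 ± 10.1 and 1045 ± 54.9. *Tuba1a* had rank 3 in CD61low cells at 505 ± 9.14 and rank 5 in CD61high cells at 326 ± 37.2, where its libraries overlapped those of *Tubb4b* at 335 ± 18.4. No other neighbours in the order overlapped in either group. *Tuba1a* took 23.2% ± 0.554 of the alpha sum in CD61low and 15.2% ± 0.879 in CD61high cells, and *Tuba1c* 21.0% ± 0.778 and 26.4% ± 0.221. *Tubb5* took 62.4% ± 0.693 and 67.5% ± 0.0309 of the beta sum, and *Tubb2a* 4.35% ± 0.761 and 1.95% ± 0.158. By estimated counts, not per length, *Tubb2a* took 2.92% and 1.26%.

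The alpha and beta sums stood in opposite order in the experiments. Alpha isotypes summed to 256.1 and beta isotypes to 759 CPM per kilobase on day 1, against 2173 and 1272 TPM in CD61low cells. *Tuba1b* had rank 6 on day 1 and rank 1 in the sort. The tables come from different cultures, RNA kits and counting methods and were scaled separately, so no test was made across them. In the annotation used here *Gm49450* covers 31.5% of the coding bases of *Tuba1b* and 27.7% of those of *Tuba1a* on the same strand. It held 1525 to 2133 estimated counts per sorted library and has no entry under its identifier in the differentiation table.

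Cell cycle genes stood higher in the CD61high libraries as well. Of the 17 listed, 12 were higher and 1 (*Mcm5*, Log2FC -0.25) lower, beside 19.4% and 16% of all genes, with *Ube2c*, a ubiquitin-conjugating enzyme of mitosis, highest at 0.87. Their summed level was 2398 to 2708 TMM-normalized CPM in CD61low and 3151 to 3413 in CD61high libraries. Under library size alone 4 were higher and 3 lower, beside 1120 and 4824 of all 12077 genes. Their part in the tubulin values was not tested.

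The remaining tubulins and the enzymes that fold, modify and sever tubulin were read from lists, by their counts past the test. Of 10 other tubulin genes only 4 were tested. On day 14 against day 1 *Tube1*, the centriolar epsilon tubulin, rose from 9.76 ± 0.612 to 21.0 ± 0.743 CPM (SD, n = 2, Log2FC 1.03), *Tubg2* rose by a Log2FC of 0.60, and *Tubg1*, the gamma tubulin of nucleation sites, fell from 73.7 ± 0.880 to 57.9 ± 1.24 CPM (-0.34), beside 68.6% of all genes past the test. In edgeR 0 of the 4 passed in the sort, beside 35.4% of all genes, with 2 at an unadjusted p below 0.05, and DESeq2 called 0 as well (*Tube1* 0.44, adjusted p = 0.0210, and *Tubg2* 0.93, 0.0381, came nearest in edgeR). With library size alone *Tubg1* was called lower (-0.52, adjusted p = 0.00497). *Tuba8* and *Tubb4a* averaged at most 0.0327 CPM on every day.

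Of 21 folding genes, which include the CCT chaperonin, prefoldin and the tubulin cofactors, 12 were lower and 6 higher on day 14 than on day 1, beside 36% and 32.6% of all genes, with a median Log2FC of -0.17. *Cct3*, a chaperonin subunit, fell from 282 ± 8.99 to 146 ± 2.83 CPM (Log2FC -0.94) and *Pfdn5*, a prefoldin subunit, rose by 0.43. The cofactors *Tbcb* (-0.89), *Tbcd* (-0.87) and *Tbce* (-0.52) fell. In the sort 8 of the 21 were lower and 1 higher, beside 16% and 19.4% of all genes, with *Tbce* lowest (-0.92, edgeR adjusted p = 0.000117) and *Arl2*, a small GTPase of the cofactor complex, the one higher (0.63). With library size alone 15 were lower and 0 higher, beside 4824 and 1120 of all 12077 genes.

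Of the 3 autoregulation genes, *Ttc5* was the one past the test on day 14 against day 1 and in the sort, beside 68.6% and 35.4% of all genes. It measured 15.5 ± 0.276 CPM on day 1 and 21.5 ± 1.97 on day 14 (SD, n = 2, Log2FC 0.45, limma adjusted p = 1.39e-05). In the sort it was 16.1 ± 1.00 in CD61low and 21.2 ± 1.75 in CD61high cells (SD, n = 3, Log2FC 0.40, edgeR adjusted p = 0.00939), a call lost with library size alone (0.10). *Scaper* (0.16) and *Cnot11* (-0.17) did not pass on day 14.

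Of 26 genes that add or remove marks on tubulin, 20 were tested in the differentiation experiment, with 10 lower and 3 (*Agbl5*, *Ttll13* and *Sirt2*) higher on day 14, beside 36% and 32.6% of all genes. *Vash2*, a vasohibin that removes the final tyrosine, fell from 99.1 ± 1.79 to 23.2 ± 0.241 CPM (Log2FC -2.05, limma adjusted p = 3.08e-21). *Ttl*, which restores that tyrosine, fell by 0.64 on the log2 scale. The deglutamylase gene *Agbl5* rose by a Log2FC of 1.05. In the sort 21 were tested, with *Ttll3*, *Hdac6* and *Agbl5* higher and *Vash2* and *Ttll12* lower, 3 and 2 beside 19.4% and 16% of all genes. *Vash2* measured 48.1 ± 1.40 and 25.9 ± 1.25 TMM-normalized CPM (SD, n = 3, Log2FC -0.89), while *Ttl* at 0.08 did not pass.

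Of 18 tested genes listed for binding to the microtubule lattice, 8 were lower on day 14 than on day 1, beside 36% of all genes. Another 5 (*Mtus2*, *Camsap3*, *Ensa*, *Camsap2* and *Prc1*) were higher, beside 32.6%. *Ensa* was listed but does not encode a lattice-binding protein, so the counts are those of the list as drawn up. *Dclk1*, a doublecortin-like kinase, fell from 245 ± 4.12 to 76.6 ± 0.883 CPM (Log2FC -1.66), and *Map6*, a stabilizer of cold-resistant microtubules, by 1.18 on the log2 scale. In the sort, of 17 tested, *Map6* (-1.83), *Dclk1* (-1.01) and *Map1b* (-0.72) were lower, and *Mtus2* (1.71), *Map7d1* (0.69), *Camsap3* (0.65), *Prc1* (0.53) and *Mapt* (0.52) higher, 3 and 5 of 17 beside 16% and 19.4% of all genes. With library size alone the counts turned to 2 higher and 7 lower, beside 1120 and 4824 of all 12077 genes, so the shares of the list were near those of all genes.

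Among genes that sever or depolymerize microtubules, 8 of 11 tested were higher and 2 (*Fign* and *Kif2a*) lower on day 14, beside 32.6% and 36% of all genes. *Katna1*, a katanin subunit, rose from 23.6 ± 0.369 to 32.4 ± 2.31 CPM (Log2FC 0.44), and *Kif2a*, a depolymerizing kinesin, fell by 0.43 on the log2 scale. In the sort 3 of 11 were higher, *Fignl2* (1.26) and *Fign* (1.24) among them, and *Kif2a* (-0.43) and *Katna1* (-0.37) were lower, beside 19.4% and 16% of all genes. Of the 13 nucleation genes, 4 (*Haus8*, *Mzt1*, *Tubgcp2* and *Nedd1*) were higher and 5 (*Mzt2*, *Tubgcp4*, *Tubgcp6*, *Cdk5rap2* and *Tpx2*) lower on day 14, beside 32.6% and 36% of all genes, with *Haus8*, an augmin subunit, at 1.22. *Haus8* (0.39) and *Tpx2* (0.37) were higher and *Haus6* (-0.33) lower in the sort, beside 19.4% and 16% of all genes.

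The genes whose pattern was most like a member's were sought for *Tubb2a*, *Tuba1a* and *Tubb3*. Among the 9 members tested in the sort, these had the longest vector of 4 Log2FC (3 days against day 1, and the sort). *Tubb2b*, filtered out of the sort, was not ranked. Likeness was the smallest Euclidean distance of these 4 values among 9859 genes. Nearest to *Tubb2a* were *Tln2* (distance 0.33), *Prss23* (0.43) and *Cxcl12* (0.45). Nearest to *Tuba1a* were *Nav3* (0.21), *Csrp2* (0.23) and *Ndufa4* (0.36). *Irf2bp2* (0.47) and *Wwox* (0.52) came nearest to *Tubb3*. The first 3 of the 4 values share the day 1 libraries, so they are not independent of each other.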

How the data were processed

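STAR alignment and HTSeq counting by the authors gave the deposited CPM values of the differentiation libraries. Genome build GRCm39 is listed in the submitters' processing notes. For the differentiation libraries the annotation and the handling of strand and of reads with several positions are not given in the sources used here. Every CPM value lay within 0.01 of a whole number of reads, which gave back the depth. For the sort the authors deposited Salmon's estimated counts and TPM per transcript. These were summed per gene with GENCODE M39 (115556 of 116747 transcripts, 99.3% to 99.4% of counts) and rounded for testing. Library totals were 27518605 to 34311238 reads (median 31454642) and 18815602 to 19220064 estimated counts (median 19059368).

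Differences between days were tested in limma 3.58.1 on log2(CPM + 1) (a mean-variance trend, CPM above 1 in at least 1 of 8 libraries). Sorted groups were compared with edgeR 4.0.16 (TMM over all genes, at least 5 normalized counts in all 6 libraries). R was 4.3.3. Both used Benjamini-Hochberg adjustment over all genes tested and a threshold of 0.01. Log2FC of low genes is understated by the pseudocount of 1. Fits were also run on simulated data, whose outcome is not reported here and is not used for any result. Chi-square per gene between replicate libraries was 2.35 to 20.8, above counting noise. Beyond biologic duplicates and independent groups of cells the sources do not say how replicates were separated, so p-values measure the spread between these libraries, which may be partly technical. Limma and edgeR also draw each gene's spread toward that of other genes, so small p-values do not rest on that gene's libraries alone. The members and gene lists were chosen with earlier results of these data known. Named genes are all members, and from each list the highest and lowest Log2FC past the test with a mean of at least 5 CPM at day 14 against day 1 and in the sort, plus genes behind a count of 5 or fewer, where reported. Further genes named from the lists were chosen after their values were seen. Alternatives were other scalings, filters, pseudocounts and tests (DESeq2 1.42.0 among them), the replicate block and each library left out. No protein sequences were used here. Some list genes and sequences are not reported here.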

Additional observations from a re-analysis of the deposited data

How the results depend on the processing

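The counts of members past the test stayed within 1.5 times the reported count under every alternative that kept all libraries (4 to 7 in the sort, 4 with an offset for transcript length). In the sort 3097 of all genes passed with that offset and 5944 with library size alone, beside 4275 in the main fit. The direction moved too: 5 members were higher and 1 lower in the main fit, and 3 and 3 with library size alone. Leaving out 1 sorted library at a time gave 3 to 6 members past the test in the sort, beside 6 with all. Of all genes, 2957 to 4047 then passed, beside 4275 with all. Leaving out a library of a day leaves 1 on that day, so no counts are given for those fits. In the sort the member count fell to 3 without the first CD61low, the second CD61low or the third CD61high library. In these fits 3579, 2957 and 3111 of all genes passed. Signs turned in 3 cases, none in a member past the test. *Tubb6* in the sort went to -0.16 with library size alone and to -0.17 with limma on log2(TPM + 1), and *Tubb2b* between day 10 and day 7 went from -0.27 without the first day 7 library to 0.0694 without the second. At day 10 against day 7, 61.3% of all calls were higher, against 48.2% with TMM scaling of the recovered reads. At day 14 against day 10 these shares were 43.3% and 53.0%. Without a filter on low values and without a trend in limma, calls were lost for *Tubb5* at day 14 against day 1 (adjusted p = 0.0208 and 0.0152), *Tuba1c* at day 10 against day 7 (0.0115 and 0.0165) and *Tuba1a* at day 14 against day 10 (0.0117 and 0.0155), and without a trend also for *Tuba1b* at day 14 against day 1 (0.0123). The length offset lost *Tubb2a* (0.0106) and *Tubb3* (0.0133) in the sort. Calls lost in limma on log2(TPM + 1) were *Tuba1b* (0.09, limma adjusted p = 0.300) and *Tubb3* (0.23, 0.177). That fit called *Tuba1a* (-0.63, 0.000473) and *Tuba4a* (-0.62, 0.000846) lower. It had 3 members higher and 3 lower, beside 824 and 3546 of all genes. Family shares moved by up to 16.03 percentage points (*Tubb5*, day 1) when not taken per length. The labels do not say whether same-numbered libraries share cells, and their deviations gave no sign of it, which does not settle the question: same-numbered sorted libraries correlated at -0.32, 0.22 and -0.06 in their deviations and differentiation libraries at 0.01 to 0.09. With the replicate block 6 members passed in the sort and 3578 genes in all, beside 4275. At days 7, 10 and 14 against day 1, 8, 10 and 10 members passed with the block. Of all genes 7265, 8166 and 8789 did, beside 7191, 8077 and 8726 without it. Among the members counting depth was low only for *Tubb2b*.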
